A study of Mus musculus with 18 samples.

Results

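The acyl-CoA thioesterase genes of mouse liver were described here by 10 members of the Acot family, *Acot1*, *Acot2*, *Acot3*, *Acot4*, *Acot5*, *Acot6*, *Acot8*, *Acot9*, *Acot12* and *Acot13*, all 10 of which are rows of the deposited table of 19057 genes. The table holds 12 Acot symbols, and the other two, *Acot7* and *Acot11*, are not members. The members are named by symbol, but the family itself was chosen from earlier results of the same 18 libraries, and which values drew attention to it is not recorded. HS compared to Con, which was part of those results, is therefore given as a description with no p-value, and the p-values of the other comparisons take no account of that choice. Liver RNA-seq came from ICR mice of 10 weeks of age in 6 groups of 3 libraries, and the study's methods give them as male. The Con group had the regular diet and saline. The HS group was fed a high-fat diet, starting at 3 weeks of age, and was given 85 mg/kg of streptozotocin (STZ), a toxin of the insulin-producing cells, when 5 weeks old. The A10-FMT and Con-FMT groups had the same diet and STZ, and from 5 to 7 weeks of age they received small-intestine microbiota from donors dosed with 10 mg/kg of alginate oligosaccharide (AOS) or with water. The A10 and HS+A10 groups are known from the sample labels alone, as 10 mg/kg AOS without and with the high-fat diet and STZ. The donor contents were pooled before transfer, and no group had the diet without STZ or STZ without the diet, so that these cannot be told apart. Nothing states that the 3 libraries of a group came from separate mice, so the p-values measure the spread between these libraries.

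Acyl-CoA thioesterases cut the thioester bond of an acyl-CoA, releasing a free fatty acid and coenzyme A, and so they work against the acyl-CoA synthetases, which join the same partners. The type I enzymes have an alpha/beta-hydrolase fold and are encoded by a row of neighbouring genes that arose by duplication. ACOT1 is cytosolic, ACOT2 lies in the mitochondrial matrix, and ACOT3 to ACOT6 are mostly peroxisomal, with ACOT4 known for succinyl-CoA and other dicarboxylic acyl-CoAs. The type II enzymes share the unrelated hotdog fold. Among these, ACOT8 is a peroxisomal enzyme of broad range, ACOT9 is mitochondrial, ACOT12 is a cytosolic acetyl-CoA hydrolase of liver, and ACOT13 (also called THEM2) takes medium- and long-chain substrates. In rodent liver several of these genes are known to respond to fasting and to agonists of the fatty acid receptor PPAR alpha.

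*Acot1* to *Acot6* lie side by side on the plus strand of chromosome 12, within 123 kb from 83987861 to 84111349 of GRCm38 (the build also called mm10), in the order *Acot2*, *Acot1*, *Acot4*, *Acot3*, *Acot5* and *Acot6*. *Acot8* is on chromosome 2, *Acot9* on chromosome X, and *Acot12* and *Acot13* are on chromosome 13. The coding sequences of the 6 neighbours were aligned in pairs, and their identity ranged from 73.2% to 95.2%, the highest being that of *Acot1* and *Acot2*. How alike they are bears on the values of these 6 genes below, because a short read from a shared stretch cannot be assigned to 1 gene. The same 120 coding bases in the last coding exon of 4 members, read from the reference genome, show the range, with capitals marking each base that differs from *Acot1*.
*Acot1*, chr12:84017023-84017142, plus strand: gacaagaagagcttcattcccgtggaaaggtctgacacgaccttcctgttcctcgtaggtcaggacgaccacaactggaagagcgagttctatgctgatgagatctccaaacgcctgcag
*Acot2*, chr12:83992745-83992864, plus strand: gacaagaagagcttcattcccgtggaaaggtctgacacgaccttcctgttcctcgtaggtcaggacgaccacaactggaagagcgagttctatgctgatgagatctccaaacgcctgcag
*Acot3*, chr12:84058670-84058789, plus strand: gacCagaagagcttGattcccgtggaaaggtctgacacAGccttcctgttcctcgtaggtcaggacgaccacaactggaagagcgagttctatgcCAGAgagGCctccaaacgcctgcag
*Acot4*, chr12:84043440-84043559, plus strand: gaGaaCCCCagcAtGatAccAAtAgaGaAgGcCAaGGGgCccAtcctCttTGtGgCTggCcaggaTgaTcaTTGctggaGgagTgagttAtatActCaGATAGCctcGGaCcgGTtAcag
*Acot2* had 0 differences from *Acot1* in this stretch, *Acot3* had 10 and *Acot4* had 50. Over whole transcripts of the annotation, 38.7% of the 35-base words of *Acot1* also occurred in another gene, and 27.5% of its words occurred in *Acot2*. The share was 35.1% for *Acot2*, 24.9% for *Acot3*, 18.3% for *Acot4*, 28.6% for *Acot5* and 11.4% for *Acot6*. Outside the row of neighbours, 32.8% of the words of *Acot9* occurred in *Acot10*, 18.8% of those of *Acot8* in *Snx21*, which overlaps it on the other strand, 3.8% of those of *Acot12* in an antisense gene, and none of those of *Acot13*. *Acot3* and *Acot4* are also overlapped by the antisense gene 4732463B04Rik and, on their own strand, by Gm49366. How reads that fit several genes were counted is not given in the sources used here, so values of *Acot1* and *Acot2* are uncertain as to how reads were divided between them.

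Since *Acot1*, *Acot2* and *Acot3* were the members that rose most in HS+A10 compared to A10, as described below, the bases upstream of their starts are shown, from RefSeq on GRCm38.p6, up to the base before the annotated gene.
*Acot1*, chr12:84009252-84009489, plus strand: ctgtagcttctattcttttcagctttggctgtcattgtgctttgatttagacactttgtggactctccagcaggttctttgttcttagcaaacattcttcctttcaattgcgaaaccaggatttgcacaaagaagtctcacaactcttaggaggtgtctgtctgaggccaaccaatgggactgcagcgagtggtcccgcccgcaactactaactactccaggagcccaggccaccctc
*Acot2*, chr12:83987611-83987860, plus strand: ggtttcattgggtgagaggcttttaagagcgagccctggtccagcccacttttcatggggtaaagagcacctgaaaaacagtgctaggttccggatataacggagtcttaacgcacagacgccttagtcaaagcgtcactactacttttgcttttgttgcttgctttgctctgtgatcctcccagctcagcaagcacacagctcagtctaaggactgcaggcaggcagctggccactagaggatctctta
*Acot3*, chr12:84051894-84052143, plus strand: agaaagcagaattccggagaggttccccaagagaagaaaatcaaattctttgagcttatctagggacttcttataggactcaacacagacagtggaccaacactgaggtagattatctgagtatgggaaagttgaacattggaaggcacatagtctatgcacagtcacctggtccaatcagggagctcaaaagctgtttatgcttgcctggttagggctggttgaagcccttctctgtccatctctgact
The windows of 300 bases around the starts, 250 before and 50 after, were searched on both strands for a direct repeat of AGGTCA with 1 base between the copies, the arrangement to which PPAR alpha and its partner RXR are known to bind. A window was found for 8 of the 10 members, and not for *Acot6* and *Acot13*. No member had the exact motif, which 0.0396% of all 32851 windows held. With up to 2 mismatches in the 12 fixed bases, *Acot4* and *Acot12* had a match, where 3.86% of all windows had one. Both matches were on the minus strand and are shown as the plus strand reads, with the matched bases in capitals.
*Acot4*, chr12:84038358-84038387, plus strand, motif 13 bases before the start, 2 mismatches: ccgaagcaTGACCTTTGGCCGgtctgtgcc
*Acot12*, chr13:91741403-91741432, plus strand, motif 110 bases before the start, 1 mismatch: taggacccTGACCTCTCACCTcctaagcac
The windows of *Acot1*, *Acot2*, *Acot3*, *Acot5*, *Acot8* and *Acot9* held none under this rule.

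RPKM, reads scaled to gene length and to the size of the library, was used as deposited, and summed over all genes it lay between 692818 and 806937 per library. The number of reads is unknown. From the smallest steps in 250 genes of low value, each taken as 1 read, relative depth ranged from 0.952 to 1.08. Genes whose steps differed widely between libraries were left out, so a wide range of depth could not have been seen. The markers of hepatocytes, the main cells of liver, were present, with a sum of 39318 to 66066 RPKM over 6 genes. Where Con replicates 1 and 2 were over 1 apart on the log2 scale (104 genes), replicate 3 had an intermediate value in 99.0%, and A10 replicate 3 had one in 96.7% of 92 such genes, against 52.7% to 77.2% in the libraries of the other 4 groups. Whether these libraries are independent of the others in their group was not tested. SEs and p-values count 3 libraries in Con and in A10, and the members' results that rest on Con or A10 are also given from the remaining 2 of each. The other comparisons draw their spread from all 18 libraries as well, and are not given without these 2 libraries. Con-FMT replicate 3 stood apart by 6 pancreatic acinar markers, which summed to 12627 RPKM there and to at most 3.07 RPKM in every other library. In whole liver, fewer cells of a type and less RNA per cell cannot be told apart.

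*Acot13* and *Acot12* were the most abundant members, with means of 56.8 and 45.3 RPKM over the 18 libraries. *Acot1* followed at 17.0 RPKM, *Acot8* at 12.2, *Acot4* at 7.37, *Acot2* at 3.20, *Acot3* at 3.05 and *Acot9* at 1.65 RPKM. *Acot6*, at 0.617 RPKM, and *Acot5*, at 0.0694 RPKM and 0 in 12 of the 18 libraries, did not reach the mean of 1 RPKM that was set for the tests, so that 8 of the 10 members were tested among 10204 genes. The same 8 members pass this filter without the HS+A10 libraries, in which most members were highest. All members together made up between 0.00909% and 0.0365% of the summed RPKM of a library.

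**Figure D1:**
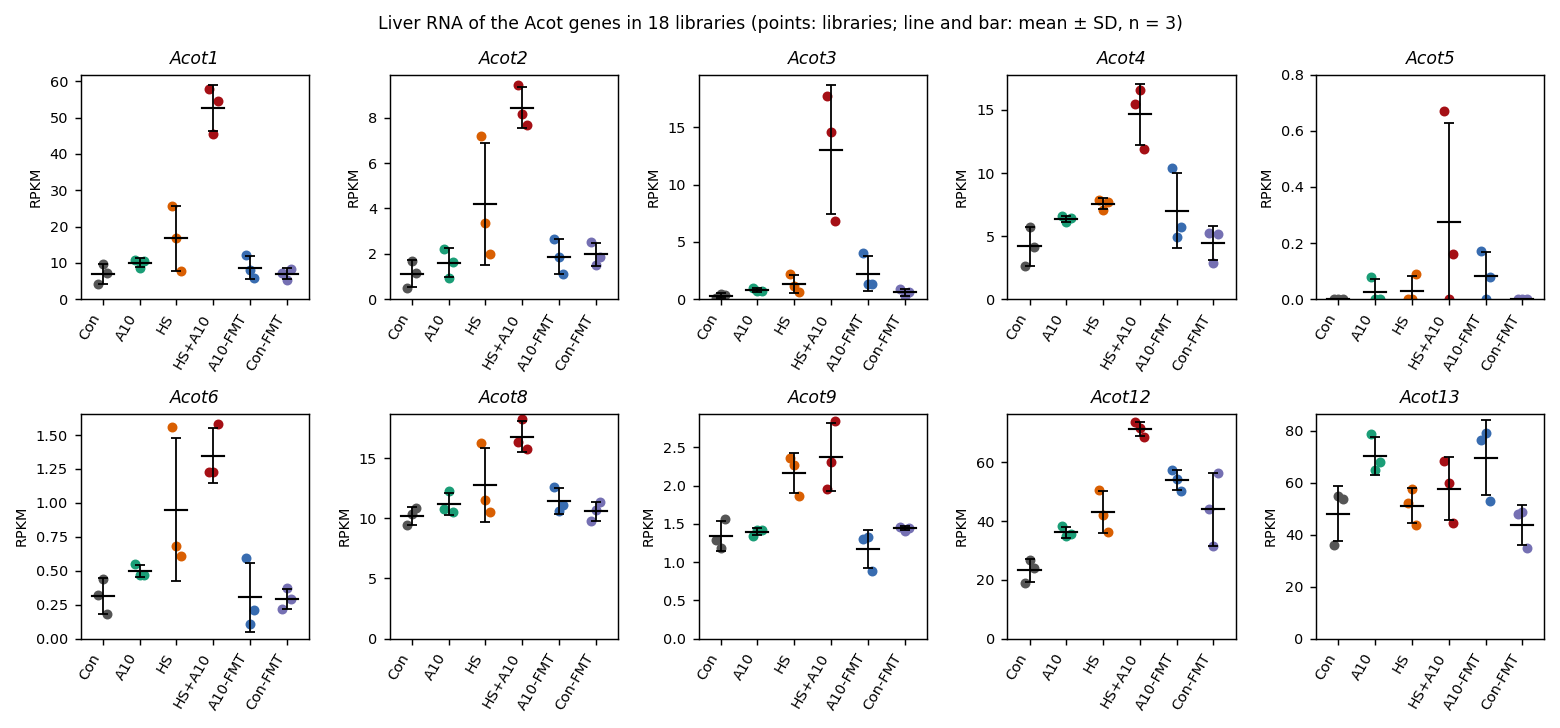
RPKM (vertical axes, each from 0) of the 10 Acot genes in the 6 groups; points are libraries, horizontal lines and bars the mean ± SD of 3. In *Acot1* the HS+A10 libraries sit between 45.58 and 57.91 RPKM, above all other libraries, whereas in *Acot13* they lie between 44.64 and 68.47 RPKM, inside the range of the others.

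*Acot1*, the cytosolic long-chain enzyme, was read at 25.70, 16.83 and 7.81 RPKM in HS, at 57.91, 45.58 and 54.73 in HS+A10, at 4.19, 9.69 and 7.34 in Con and at 10.89, 8.67 and 10.52 in A10. In the FMT groups it was read at 12.08, 7.96 and 5.88 RPKM (A10-FMT) and at 7.13, 5.36 and 8.42 RPKM (Con-FMT). By mean the order was HS+A10, HS, A10, A10-FMT, Con and Con-FMT, and only the step from HS+A10 to HS was free of overlap between neighbours. *Acot2*, the mitochondrial enzyme, was at 7.19, 3.37 and 2.01 RPKM in HS and at 9.45, 8.16 and 7.69 in HS+A10, against 0.50, 1.68 and 1.17 in Con and 2.23, 0.94 and 1.65 in A10. Its FMT libraries ranged from 1.10 to 2.64 RPKM, and its lowest HS+A10 library was above every library of the other groups. HS replicate 1 was the highest and HS replicate 3 the lowest HS library in both genes, which share much sequence.

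*Acot3*, a peroxisomal long-chain enzyme, was nearly silent in Con, at 0.09, 0.45 and 0.41 RPKM, and reached 17.75, 14.54 and 6.80 RPKM in HS+A10. The 3 libraries of A10 were at 1.01, 0.69 and 0.72 RPKM, those of HS at 2.22, 1.17 and 0.59, those of Con-FMT at 0.88, 0.27 and 0.65, and those of A10-FMT at 4.0, 1.36 and 1.32. The lowest HS+A10 library thus lay above the highest of all others. *Acot4* was at 15.47, 16.57 and 11.91 RPKM in HS+A10 and at 7.89, 7.06 and 7.72 in HS, with 6.58, 6.12 and 6.40 in A10 and 2.65, 5.74 and 4.16 in Con. A10-FMT replicate 1, at 10.39 RPKM, stood above the other FMT libraries, which were between 2.89 and 5.76 RPKM. *Acot6* was highest in HS+A10, between 1.23 and 1.58 RPKM, with 1.56 RPKM in HS replicate 1 and at most 0.68 in the remaining libraries. *Acot5* was listed at 0 in all Con and Con-FMT libraries, and its highest value was 0.67 RPKM in HS+A10 replicate 1.

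*Acot12*, the acetyl-CoA hydrolase, was at 18.91, 26.67 and 24.14 RPKM in Con, the lowest group, and at 73.57, 71.67 and 68.71 RPKM in HS+A10, the highest. In between were A10 at 38.19, 34.80 and 35.50, HS at 50.65, 41.90 and 36.42, Con-FMT at 44.09, 31.52 and 56.23, and A10-FMT at 57.23, 54.22 and 50.26 RPKM. Con and HS+A10 did not overlap any other group, whereas A10, HS and Con-FMT overlapped each other, and A10-FMT overlapped HS and Con-FMT. *Acot13* had another order, with A10 at 78.72, 64.79 and 67.93 RPKM and A10-FMT at 76.59, 79.31 and 53.11 RPKM on top. HS+A10 followed at 68.47, 59.99 and 44.64, then HS at 52.34, 57.42 and 43.91, Con at 35.97, 54.71 and 53.58, and Con-FMT at 47.92, 48.58 and 34.74 RPKM, and each of these neighbours overlapped. *Acot8* was the flattest member, between 9.42 and 18.26 RPKM in all 18 libraries. *Acot9*, the mitochondrial type II enzyme, was between 1.86 and 2.84 RPKM in the 6 libraries of HS and HS+A10 and between 0.88 and 1.56 RPKM in the other 12. These ranges did not overlap, but the split was seen after the fact, and the share of all genes with it was not counted.

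Compared to the Con group, all 8 tested members had a higher mean in the HS group. On the scale of log2(RPKM + 1) the difference was 1.21 ± 0.31 (SE) for *Acot2*, 1.06 ± 0.34 for *Acot1*, 0.86 ± 0.17 for *Acot12*, 0.77 ± 0.34 for *Acot3*, 0.77 ± 0.24 for *Acot4*, 0.43 ± 0.11 for *Acot9*, 0.28 ± 0.12 for *Acot8* and 0.11 ± 0.20 for *Acot13*. The HS and Con libraries did not overlap in 5 of the 8 members (*Acot2*, *Acot3*, *Acot4*, *Acot9* and *Acot12*), a pattern that 32.6% of the tested genes showed in this direction. The fit over all genes, from which no p is given here, put 5 of the 8 members among the 15.9% of all genes called higher and none among the 1.87% called lower, and the median of the members was 0.769 beside 0.141 for all genes. Nothing is read from these counts, since this comparison was known when the family was chosen. The general shift matters here, because with every library scaled to the same median the difference of *Acot13* turned to -0.08 and that of *Acot1* was 0.89, and 398 genes were called higher and 486 lower instead of 1618 and 191. Without Con replicate 3 and A10 replicate 3 the differences of the members lay between 0.194 and 1.25. Without HS replicate 1 the difference of *Acot1* was 0.696, and without Con replicate 1 that of *Acot13* was -0.087. The summed stellate cell markers were 105.8 to 153.8 RPKM in HS and 65.8 to 77.1 RPKM in Con. The erythroid markers summed to 2860 to 9784 and 1228 to 1971 RPKM, most of it *Hba-a1*, while *Alas2* overlapped (78.9 to 125.1 and 113.9 to 121.1 RPKM). The hepatocyte markers summed to 42768 to 48708 and 46545 to 66066 RPKM. Among these, *Ttr* and *Serpina1c* were lower in HS, and *Alb*, *Apoa1* and *Cps1* overlapped. *Hnf4a* was higher in HS, at 117.6 to 140.4 against 101.8 to 108.9 RPKM. The part of these cell types in the differences was not tested.

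The same question, what the high-fat diet with STZ does, is asked a second time by HS+A10 against A10, in which both groups carried AOS and no library is shared with HS or Con. Here 7 of the 8 tested members rose and none fell, where 13.6% of all genes were called higher and 7.28% lower. *Acot3* rose most, by a log2 change of 2.87 ± 0.34 (SE; limma adjusted p = 7.04e-05), a 16.2-fold higher mean RPKM. *Acot1* rose by 2.28 ± 0.34 (adjusted p = 0.000387 from limma), a 5.26-fold higher mean RPKM. *Acot2* rose by 1.88 ± 0.31 (limma adjusted p = 0.000856). *Acot4* and *Acot12* rose by 1.08 ± 0.24 and 0.96 ± 0.17 (limma adjusted p = 0.00629 and 0.0012). *Acot8* rose by 0.55 ± 0.12 and *Acot9* by 0.49 ± 0.11 (limma adjusted p = 0.00616 and 0.00569). In each of these 7 genes the 3 HS+A10 libraries lay above the 3 A10 libraries, as they did in 26.9% of the tested genes. *Acot13* was the exception, at -0.30 ± 0.20 (95% interval -0.73 to 0.13, limma adjusted p = 0.32). The members' median of 1.018 stood beside 0.043 for all genes. *Acot6* did not overlap between the groups, at a mean of 1.35 against 0.497 RPKM (exact two-sided permutation p = 0.1, the smallest for 3 libraries against 3), and *Acot5* did (exact permutation p = 0.4).

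All 7 calls held in each of the 12 alternatives run, with log2 changes of *Acot1* between 2.19 and 2.38 and of *Acot3* between 2.61 and 3.76. Without A10 replicate 3 and Con replicate 3 the changes were 2.83 for *Acot3*, 2.32 for *Acot1* and 0.508 for *Acot8*, with limma adjusted p-values of 0.00166, 0.00466 and 0.0404. Other scalings changed the balance of all genes, to 1243 higher and 1151 lower with equal medians instead of 1388 and 743. The HS+A10 libraries also had the highest summed endothelial markers, 49.0 to 58.9 RPKM against 34.8 to 43.9 RPKM in A10. Stellate markers summed to 104.4 to 112.1 against 76.5 to 85.2 RPKM. Cholangiocyte markers summed to 27.5 to 43.5 against 18.5 to 25.2 RPKM, nearly all of it *Spp1*. Of that list *Epcam* was also higher (0.54 to 0.81 against 0.34 to 0.44 RPKM), while *Krt7* (0.34 to 0.55 and 0.29 to 0.73 RPKM) and *Krt19* overlapped. Hepatocyte markers summed to 46605 to 49024 against 56310 to 62259 RPKM, with overlap in *Alb*, *Cps1* and *Hnf4a*. The 4 adipocyte markers summed to 1.41 to 2.61 RPKM in HS+A10 and to at most 0.32 RPKM in A10, nearly all of it *Cfd*, while *Adipoq* was at most 0.11 RPKM and *Plin1* was at 0 in HS+A10. The part of these cell types in the change of the members was not tested.

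**Figure D2:**
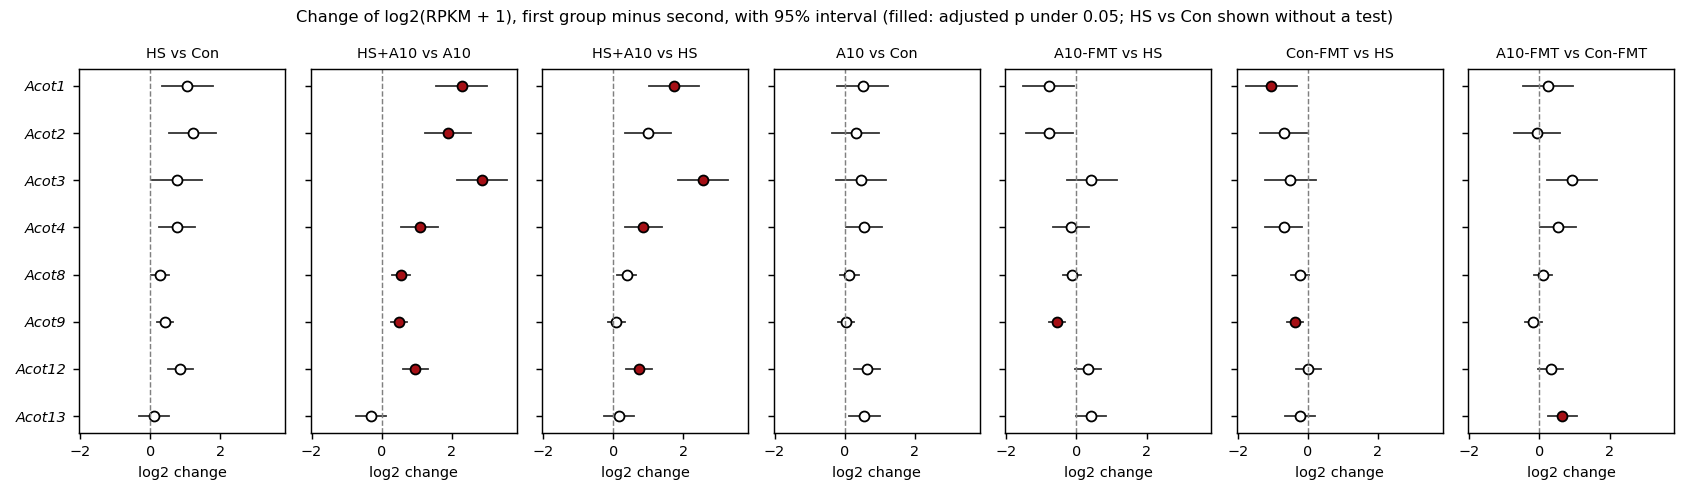
Difference in log2(RPKM + 1), first group minus second, of the 8 tested Acot genes in 7 comparisons, with lines for the 95% interval and filled points for a limma adjusted p under 0.05. In HS+A10 vs A10 all genes but *Acot13* are filled, with *Acot3* farthest right at 2.87, and in A10 vs Con none is; HS vs Con is drawn as a description only.

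Whether AOS itself went with the family's level was asked in mice on the diet with STZ, by HS+A10 against HS, and in mice without them, by A10 against Con. The former shares the HS libraries with the description above and the latter the Con libraries. The former also shares the HS+A10 libraries with HS+A10 against A10, and the latter the A10 libraries, so neither is independent of that comparison. Compared to HS, 4 of the 8 members rose in HS+A10 and none fell, where 2.95% of all genes were called higher and 4.37% lower. *Acot3* rose by 2.56 ± 0.34 (SE; limma adjusted p = 0.00305), a 9.82-fold higher mean RPKM. *Acot1* rose by 1.73 ± 0.34 (limma adjusted p = 0.00943), *Acot4* by 0.86 ± 0.24 (limma adjusted p = 0.0458) and *Acot12* by 0.73 ± 0.17 (limma adjusted p = 0.0199). *Acot2* was 0.98 ± 0.31 higher and *Acot8* 0.39 ± 0.12 higher (limma adjusted p = 0.0663 and 0.067), while *Acot9* and *Acot13* differed by 0.09 ± 0.11 and 0.16 ± 0.20 (limma adjusted p = 0.673 and 0.684). The calls of *Acot1* and *Acot3* held in all 11 alternatives. That of *Acot4* was lost in 8 of the 11, at adjusted p-values up to 0.148 and after leaving out any of HS replicates 1 to 3 or HS+A10 replicates 1 and 2. That of *Acot12* was lost in 4, without HS replicate 2 or 3 or HS+A10 replicate 1 or 2, at adjusted p-values up to 0.0886. *Acot2* and *Acot8* passed without HS replicate 1, at 1.37 and 0.563 (limma adjusted p = 0.00637 and 0.00312). With equal medians 579 genes were called higher and 356 lower instead of 301 and 446. The endothelial markers summed to 36.7 to 43.3 RPKM in HS and the adipocyte markers to at most 0.20 RPKM, both below the HS+A10 ranges above, and their part was not tested.

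In A10 compared to Con, 0 of the 8 members passed the test, as did few genes of any kind, 0.0490% higher and 0.0196% lower, or 7 of 10204 (1418 genes at an unadjusted p under 0.05). All 8 means were higher in A10, where the median change of all genes was 0.066, and with equal medians *Acot9* turned to -0.0135. The libraries did not overlap in *Acot3*, *Acot4*, *Acot12* and *Acot13*, 4 of the 8 members, a pattern seen in 19.6% of the tested genes in this direction. *Acot12* differed by 0.63 ± 0.17 (95% interval 0.27 to 0.99, limma adjusted p = 0.159) and *Acot13* by 0.56 ± 0.20 (95% interval 0.13 to 0.99, limma adjusted p = 0.257). Without Con replicate 3 and A10 replicate 3 both differed by 0.674, at a limma adjusted p of 0.675 each. The erythroid markers summed to 2112 to 2722 RPKM in A10 and to 1228 to 1971 RPKM in Con, most of it *Hba-a1*. *Alas2* of the same list went the other way, at 90.3 to 97.0 against 113.9 to 121.1 RPKM, and *Hbb-bs* overlapped. The part of these markers was not tested. The difference between the 2 effects of diet with STZ, that with AOS minus that without, passed in 0.00980% of genes (1 gene, with 1320 at an unadjusted p under 0.05) and in 0 of the 8 members. *Acot3* had the largest such difference, 2.10 ± 0.48 (SE; limma adjusted p = 0.118, unadjusted p = 0.000485 from limma), which passed in 1 of 18 alternatives, without HS replicate 1 (limma adjusted p = 0.0397). For *Acot1* the value was 1.22 ± 0.48 (limma adjusted p = 0.3) and for *Acot12* it was 0.10 ± 0.24 (limma adjusted p = 0.897). A larger effect in the presence of AOS was therefore not shown for any member, although the interval of *Acot3* ran from 1.08 to 3.11. Without Con replicate 3 and A10 replicate 3 the value of *Acot3* was 2.01 (limma adjusted p = 0.437) and that of *Acot1* was 1.2 (limma adjusted p = 0.575).

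The FMT groups were compared with HS to ask what transferred microbiota changed in mice with the same diet and STZ, and both comparisons share the HS libraries. In A10-FMT, 1 of the 8 members fell and none rose, where 2.09% of all genes were called higher and 21% lower. The member was *Acot9*, at 1.30, 1.33 and 0.88 RPKM against 2.36, 2.27 and 1.86 in HS, a log2 change of -0.55 ± 0.11 (SE; limma adjusted p = 0.00374), and its call held in all 12 alternatives. *Acot1* and *Acot2* had differences of -0.79 ± 0.34 and -0.77 ± 0.31 (limma adjusted p = 0.0985 and 0.0851), and in 12 alternatives each they passed in 1, without HS replicate 3, the lowest HS library of both genes (log2 change -1.23 and -1.10, limma adjusted p = 0.0157 and 0.0282). *Acot12* and *Acot13* were higher by 0.33 ± 0.17 and 0.42 ± 0.20 (limma adjusted p = 0.158 and 0.133). All genes had a median change of -0.16 here. With equal medians *Acot12* and *Acot13* passed at 0.52 and 0.613 (limma adjusted p = 0.0352 and 0.0478), *Acot9* stayed lower at -0.43, and 639 genes were called higher and 516 lower instead of 213 and 2145. The Kupffer cell markers summed to 36.7 to 44.8 RPKM in A10-FMT and to 51.6 to 84.2 RPKM in HS, and the stellate markers to 78.0 to 99.0 against 105.8 to 153.8 RPKM. The erythroid markers summed to 1133 to 2024 against 2860 to 9784 RPKM, most of it *Hba-a1*. *Alas2* of that list overlapped, at 78.7 to 126.2 against 78.9 to 125.1 RPKM. The part of these cell types was not tested.

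In Con-FMT compared to HS, *Acot1* fell by 1.04 ± 0.34 on the log2 scale (SE; limma adjusted p = 0.0376) and *Acot9* by 0.37 ± 0.11 (limma adjusted p = 0.0222), 2 of the 8 members, where 4.61% of all genes were called higher and 19.0% lower. The Con-FMT and HS libraries of *Acot1* overlapped, since HS replicate 3 at 7.81 RPKM lay below Con-FMT replicate 3 at 8.42 RPKM. *Acot4* did not overlap and had a difference of -0.69 ± 0.24 (limma adjusted p = 0.0536). *Acot12* and *Acot13* differed by 0.01 ± 0.17 and -0.23 ± 0.20 (limma adjusted p = 0.984 and 0.433). Of 12 alternatives the call of *Acot1* was lost in 8 and that of *Acot9* in 5. Neither held with equal medians (limma adjusted p = 0.0528 and 0.0572), where 858 genes were called higher and 1240 lower instead of 470 and 1943, nor without HS replicate 1 or 2 or Con-FMT replicate 2 (limma adjusted p from 0.0592 to 0.167). *Acot1* was also lost with quantile normalization, with no filter, with only the 12 libraries of Con, HS and the FMT groups and without Con-FMT replicate 1 (limma adjusted p = 0.0616, 0.066, 0.0865 and 0.071), and *Acot9* with quantile normalization (limma adjusted p = 0.207). Without Con-FMT replicate 3, the library with pancreatic transcripts, both calls held and *Acot12* was at -0.187. The stellate markers summed to 78.5 to 93.1 RPKM in Con-FMT and to 105.8 to 153.8 RPKM in HS, and their part was not tested. *Acot6* did not overlap between HS and either FMT group, with FMT libraries between 0.11 and 0.59 RPKM (exact permutation p = 0.1, the smallest possible).

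A10-FMT and Con-FMT differ in whether the donors had been dosed with AOS, and neither shares a library with HS or Con. *Acot13* rose in A10-FMT, to a mean of 69.7 ± 14.4 RPKM (SD, n = 3) from 43.7 ± 7.81, a log2 change of 0.65 ± 0.20 (SE; limma adjusted p = 0.0338), with no overlap between the libraries. It was the 1 member of 8 to pass, where 6.72% of all genes were called higher and 12% lower. *Acot3* was 0.93 ± 0.34 higher, again without overlap (limma adjusted p = 0.0654), *Acot4* 0.53 ± 0.24 and *Acot12* 0.32 ± 0.17 (limma adjusted p = 0.142 and 0.194). *Acot1* and *Acot2* differed by 0.24 ± 0.34 and -0.07 ± 0.31 (limma adjusted p = 0.672 and 0.898), and *Acot8* and *Acot9* by 0.10 ± 0.12 and -0.18 ± 0.11 (limma adjusted p = 0.624 and 0.284). The libraries of *Acot9* did not overlap either, with A10-FMT the lower group. The share of all genes without overlap was not counted in any comparison with an FMT group. Without Con-FMT replicate 3, whose 4 adipocyte markers also summed to 14.5 RPKM, the change of *Acot13* was 0.499 (limma adjusted p = 0.128), and that of *Acot12* was 0.518 and passed (limma adjusted p = 0.0368). The call of *Acot13* was also lost without A10-FMT replicate 1 or 2 (limma adjusted p = 0.105 and 0.13). With equal medians it held at 0.73, *Acot3* passed as well (limma adjusted p = 0.0427), and 1302 genes were called higher and 958 lower instead of 686 and 1228.

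Summed over *Acot1* to *Acot6*, the row on chromosome 12 held 13 ± 5.13 RPKM (SD, n = 3) in Con, 19.3 ± 2.26 in A10, 30.8 ± 13 in HS, 90.5 ± 10.5 in HS+A10, 14.3 ± 3.35 in Con-FMT and 20.1 ± 8.47 in A10-FMT. The 4 other members together ranged less, from a mean of 82.9 RPKM in Con to 148 in HS+A10. The row made up 36.1% to 39.0% of the RPKM of the 10 members in the HS+A10 libraries, 16.9% to 26.8% in HS and 10.0% to 16.8% in the other 12. Within the row *Acot1* gave 40.4% to 66.0% in every library, whereas the share of *Acot3* went from 1.16% to 3.09% in Con to 8.21% to 17.3% in HS+A10 and 8.38% to 13.4% in A10-FMT. In HS *Acot3* gave 3.13% to 4.98%, above the range of Con and overlapping the 3.64% to 4.73% of A10. These shares are descriptions of RPKM, and stretches common to the genes enter each of them.

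**Figure D3:**
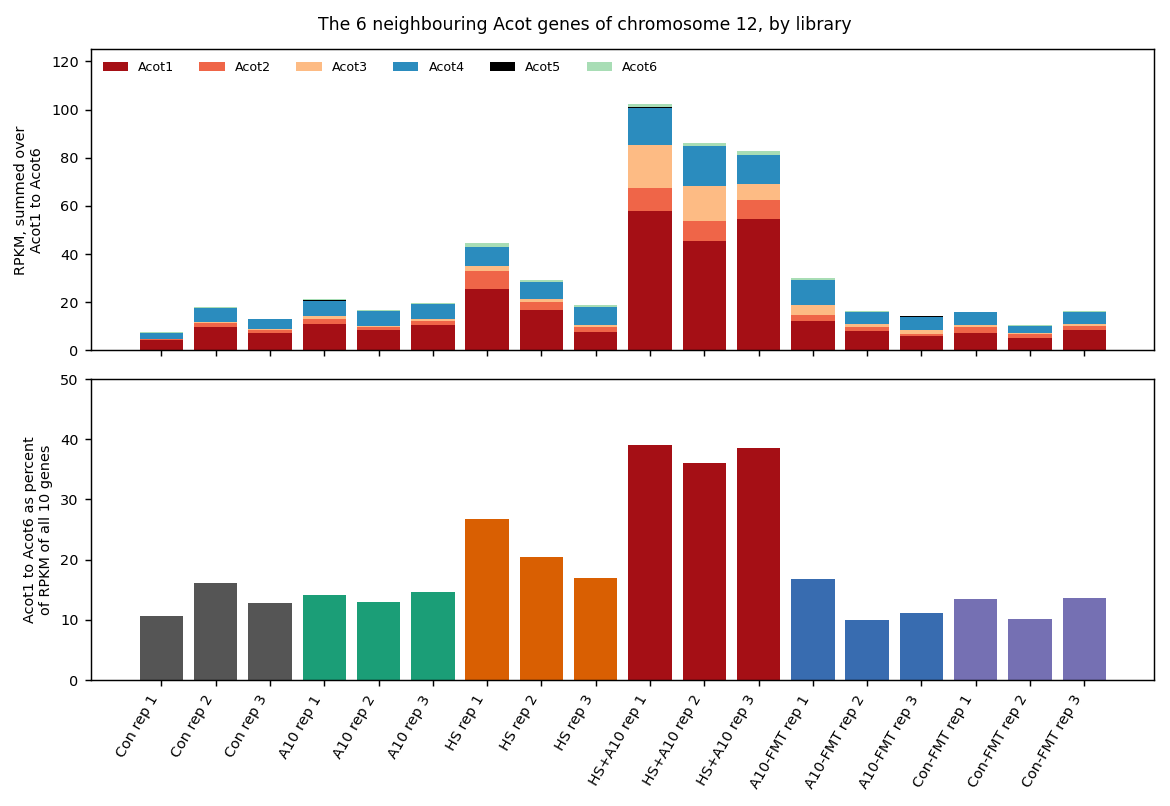
Upper panel, RPKM of *Acot1* to *Acot6* stacked for each of the 18 libraries; lower panel, the same sum as a percent of the RPKM of the 10 members described here (*Acot7* and *Acot11* are not in the sum). The HS+A10 libraries reach 82.87 to 102.48 RPKM and 36.1% to 39.0% of the 10 members, and the HS libraries are spread from 18.83 to 44.56 RPKM.

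Over the 18 libraries *Acot1* and *Acot2* had the closest pattern of any 2 members, with a Pearson r of 0.95 for log2(RPKM + 1), and r was still 0.91 after the group means were subtracted. *Acot3* had r of 0.90 with *Acot1* and 0.91 with *Acot4*, and *Acot8*, on another chromosome, had 0.91 with *Acot1*. After subtraction of group means these fell to 0.67, 0.73 and 0.63. *Acot13* stood apart over the 18 libraries, with r between -0.12 and 0.37 with the other members, and between 0.09 and 0.60 after subtraction. For *Acot9* r went from between -0.12 and 0.80 to between -0.08 and 0.42. The libraries share depth and scaling, the members of the row share sequence, and the 3 HS+A10 libraries were the highest in several members, so these are descriptions without a test.

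**Figure D4:**
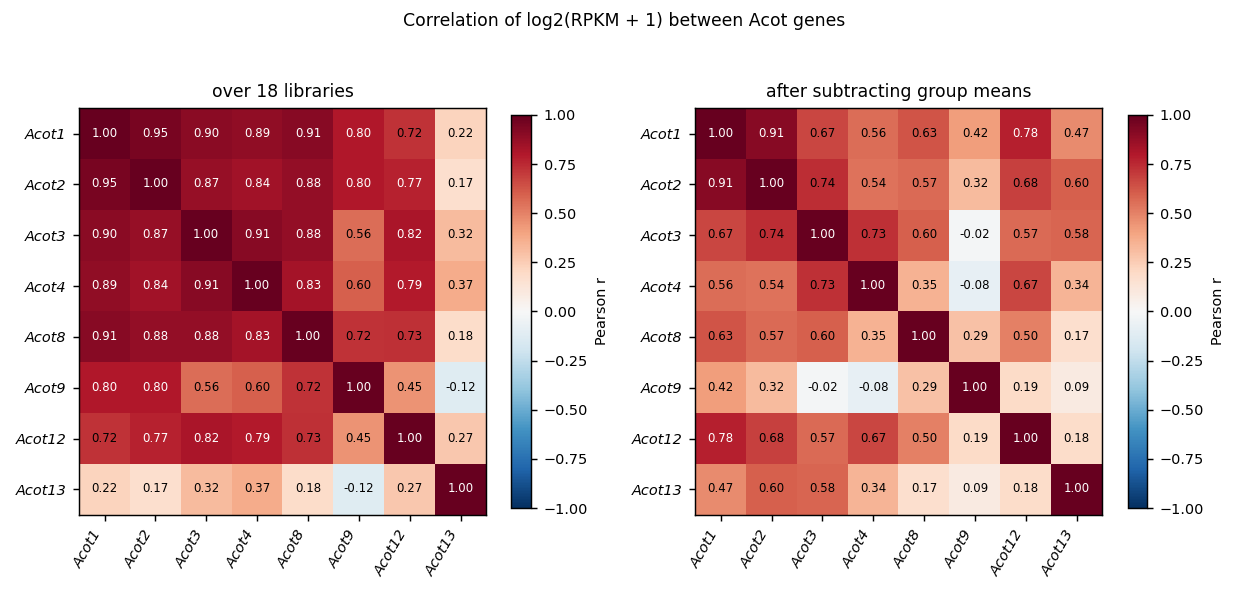
Pearson r of log2(RPKM + 1) between the 8 tested Acot genes, over 18 libraries (left) and after the mean of each group was subtracted (right). The row and column of *Acot13* are pale on the left, at most 0.37, while *Acot1* and *Acot2* keep 0.91 on the right.

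Among all tested genes, those most like *Acot2*, the member with the largest difference between HS and Con, were *Eci1* (r = 0.965 over 18 libraries, 52.66 to 173.55 RPKM), which encodes an isomerase of fatty acid oxidation, *Cyp4a10* (r = 0.963, 1.29 to 864.3 RPKM), a fatty acid omega-hydroxylase, and *Enc1* (r = 0.96, 0.47 to 2.83 RPKM). Those most like *Acot13*, the most abundant member, were *Tdp2* (r = 0.892, 2.12 to 10.02 RPKM), a DNA repair enzyme whose gene starts 138 bases from that of *Acot13* on the other strand, *Eny2* (r = 0.864) and *Sult1c2* (r = 0.863). These genes were found by ranking over the same libraries and carry no test.

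The enzymes that act against the thioesterases, 18 acyl-CoA synthetases with 15 of them tested, went both ways. In HS+A10 compared to A10, 7 of the 15 rose and 3 fell, where 13.6% of all genes were called higher and 7.28% lower, with a list median of 0.475 beside 0.043 for all genes. Without Con replicate 3 and A10 replicate 3 the counts were 6 and 1. *Acss2*, the cytosolic acetyl-CoA synthetase, fell by 2.46 ± 0.36 on the log2 scale, from 127 to 22.2 RPKM (limma adjusted p = 0.000358). *Slc27a2*, a very-long-chain synthetase and transporter, rose by 1.26 ± 0.18 from 328 to 788 RPKM (limma adjusted p = 0.000315), and *Acss3* rose by 1.22 ± 0.27 (limma adjusted p = 0.00593), and all 3 calls held without those libraries. In HS+A10 compared to HS, 3 rose, *Acsl1* by 0.76 ± 0.21, *Acsm3* by 0.73 ± 0.16 and *Acsm5* by 0.52 ± 0.14 (limma adjusted p = 0.042, 0.0182 and 0.038). In HS+A10 compared to HS 2.95% of all genes were called higher. In A10-FMT compared to HS, 3 of the 15 fell, a share near the 21% of all genes called lower, with *Acsf2* lower by 0.80 ± 0.24, *Acsf3* by 0.40 ± 0.097 and *Slc27a4* by 0.38 ± 0.078 (limma adjusted p = 0.0256, 0.0102 and 0.00453). In Con-FMT compared to HS, 3 of the 15 again fell, near the 19% of all genes called lower, *Acss3* by 0.92 ± 0.27, *Acsf2* by 0.90 ± 0.24 and *Slc27a4* by 0.30 ± 0.078 (limma adjusted p = 0.024, 0.0137 and 0.0125). Between the FMT groups 1 of the 15, *Slc27a1*, rose in A10-FMT by 0.34 ± 0.11 (limma adjusted p = 0.0443), beside 6.72% of all genes, and in A10 compared to Con none passed. In HS against Con, 4 of the 15 were called higher and 1 lower, beside 15.9% and 1.87% of all genes, given without reading. *Acss2* was at 27.0 RPKM in HS against 97.8 RPKM in Con.

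Of 14 genes for coenzyme A synthesis and breakdown and acyl-CoA binding, all tested, 4 rose and 1 fell in HS+A10 compared to A10, beside the 13.6% and 7.28% of all genes. Without Con replicate 3 and A10 replicate 3, 1 rose (*Acbd5*) and 1 fell (*Dbi*). *Dbi*, the acyl-CoA binding protein, fell by 1.15 ± 0.18 from 1230 to 559 RPKM (limma adjusted p = 0.000464). *Pank1*, a pantothenate kinase that starts coenzyme A synthesis, rose by 0.68 ± 0.18 (limma adjusted p = 0.016), and *Slc25a42*, the mitochondrial coenzyme A carrier, by 0.52 ± 0.14 (limma adjusted p = 0.019), but neither passed without those libraries (limma adjusted p = 0.0611 and 0.0667). Compared to HS, *Pank1* and *Acbd5* rose in HS+A10 by 0.67 ± 0.18 and 0.42 ± 0.093 (limma adjusted p = 0.0395 and 0.0179), beside 2.95% of all genes called higher. In A10-FMT compared to HS, *Nudt7*, a peroxisomal coenzyme A hydrolase, rose by 0.39 ± 0.12 and *Pank2* fell by 0.22 ± 0.067 (limma adjusted p = 0.0347 and 0.029). Of all genes, 2.09% were called higher and 21% lower in that comparison. In Con-FMT compared to HS, 3 of the 14 fell, near the 19% of all genes, *Slc25a42*, *Acbd5* and *Pank2* by 0.55 ± 0.14, 0.29 ± 0.093 and 0.27 ± 0.067 (limma adjusted p = 0.0136, 0.0345 and 0.0103). *Slc25a42* and *Acbd5* rose in A10-FMT compared to Con-FMT by 0.58 ± 0.14 and 0.48 ± 0.093 (limma adjusted p = 0.0121 and 0.00256), beside 6.72% of all genes called higher. No gene of the list passed in A10 compared to Con. In HS against Con 3 were called higher and 1 lower, beside 15.9% and 1.87% of all genes, given without reading. Among 8 other thioesterases and relatives, 7 were in the table and 5 were tested (*Acot7*, *Baat*, *Ppt1*, *Ppt2* and *Them4*). Only *Ppt1*, a lysosomal palmitoyl-protein thioesterase, passed in any comparison, rising by 0.36 ± 0.076 in HS+A10 compared to A10 (limma adjusted p = 0.00392), which held without those libraries (limma adjusted p = 0.0264), besides the 0.39 ± 0.076 by which it was higher in HS than in Con. Of all genes, 13.6% were called higher in HS+A10 compared to A10 and 15.9% in HS compared to Con.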

How the data were processed

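Liver RNA-seq was taken from 18 libraries of 6 groups, grouped by the sample labels. The authors deposited RPKM values with 2 decimals for 19057 genes. Per the labels, Bowtie 0.12.2 and mm10 were used; the study's methods name SOAPaligner 2.20 with reference genes, read numbers turned into RPKM, and oligo(dT) enrichment. Which of these gave the values is not settled by the sources used here. Read numbers are not known, and counting intervals are therefore left out; the spread of 3 libraries per group sets the precision.

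Values were used as deposited. A linear model of log2(RPKM + 1) with 1 mean per group was fitted to all 18 libraries in limma 3.58.1 (R 4.3.3), with a variance trend, on 10204 genes whose mean reached 1 RPKM. All tests were two-sided, with Benjamini-Hochberg adjustment over every gene tested, and an adjusted p under 0.05 made a call. A fold change on this scale understates the change of low genes. A simulation of independent libraries checked the code of the fit. It held no dependence between libraries, no shift in scaling and no shared reads, so it cannot speak to these. The test of the study's methods, DEGseq, was not used. *Acot5* and *Acot6* were compared by exact permutation. Members and gene lists were chosen with earlier results of these data known. All 10 members are named, and other genes only where called, at most the 3 with the largest change per list and comparison, or as the 3 most alike. Sequences and positions come from GENCODE M21 and RefSeq on GRCm38 (Python 3.11.15, Biopython 1.88). Alternatives were a pseudocount of 0.1, no filter, median scaling, quantile normalization, a replicate block, only the 12 libraries of the recipient experiment, and leaving out each library; leaving out Con replicate 3 and A10 replicate 3 together was chosen after seeing the data.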

Additional observations from a re-analysis of the deposited data

How the results depend on the processing

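Outside HS vs Con, the calls that held in all alternatives run were the 7 of HS+A10 vs A10, *Acot1* and *Acot3* in HS+A10 vs HS, and *Acot9* in A10-FMT vs HS. The count of members called in HS vs Con was 2 with median scaling, quantile normalization and without Con replicate 3 and A10 replicate 3, and 3 with only 12 libraries, while all genes called were 884, 876, 697 and 1001 in that order. Nothing is read from any count of members called in HS vs Con in this section, since that comparison was known when the family was chosen. All genes called without those 2 libraries were 1159 in HS+A10 vs A10, 0 in A10 vs Con and 0 in the difference of the 2 effects of diet with STZ. That difference gave 4 genes with a pseudocount of 0.1 and 2 with no filter. With no filter 18 genes were called in A10 vs Con, 2 members in A10-FMT vs HS (*Acot6* joined) and 0 in A10-FMT vs Con-FMT. All genes called in A10-FMT vs HS were 1155 with median scaling, which called 3 members, and 1114 with quantile normalization. In Con-FMT vs HS the members called were 0 with both scalings and 1 with only 12 libraries. In A10-FMT vs Con-FMT they were 2 with a pseudocount of 0.1, median scaling or quantile normalization, and 0 with only 12 libraries. The cause of these differences was not tested.

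The values that turned sign were not called by the model as described. *Acot13* in HS vs Con was -0.0779 with median scaling and -0.0109 with quantile normalization. *Acot9* in A10 vs Con was -0.0135 and -0.0065. In A10-FMT vs HS, *Acot4* was 0.0164 and 0.0184 and *Acot8* was 0.0491 and 0.0154. *Acot9* in the difference of the 2 effects was -0.00433 without Con replicate 3 and A10 replicate 3. Leaving out 1 library turned *Acot13* (-0.0869 to 0.21) in HS vs Con, *Acot9* (-0.0117 to 0.176) in HS+A10 vs HS, *Acot9* (-0.0169 to 0.099) in A10 vs Con, *Acot4* (-0.433 to 0.0376) and *Acot8* (-0.248 to 0.0454) in A10-FMT vs HS, *Acot12* (-0.187 to 0.22) in Con-FMT vs HS, *Acot1* (-0.00305 to 0.46) and *Acot2* (-0.265 to 0.132) in A10-FMT vs Con-FMT, and *Acot9* (-0.0453 to 0.142) and *Acot12* (-0.00995 to 0.236) in the difference of the 2 effects. Leaving out 1 library, members called ranged from 1 (without Con replicate 1) to 5 in HS vs Con, 2 to 5 in HS+A10 vs HS, 1 to 3 in A10-FMT vs HS, 0 to 3 in Con-FMT vs HS, 0 to 1 in A10-FMT vs Con-FMT and 0 to 1 in the difference of the 2 effects. All genes called ranged from 845 (without Con replicate 1) to 1597, 159 (without HS+A10 replicate 1) to 1239 (without HS replicate 1), 1295 (without A10-FMT replicate 3) to 2584, 1755 to 2276, 1176 (without A10-FMT replicate 2) to 1638 and 0 to 118 (without HS replicate 1) in the same order, from 1324 (without A10 replicate 2) to 1679 in HS+A10 vs A10 and from 0 to 73 (without Con replicate 2) in A10 vs Con.

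Labels number the libraries 1 to 3 in each group. Deviations from the group means of same-numbered libraries had a correlation above 0.1 in 12 of 45 pairs (median 0.0067, range -0.126 to 0.262). Between HS and HS+A10 it was 0.227 for number 1, -0.0258 for number 2 and 0.262 for number 3. Whether same-numbered libraries share more than a number was not tested. With the replicate block, 3 members were called in HS vs Con and 2 in A10-FMT vs Con-FMT (*Acot3* joined, adjusted p = 0.0353), and *Acot4* was lost in HS+A10 vs HS (adjusted p = 0.0608), by limma.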
